A study of Mus musculus with 12 samples.

Results

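The galectin family comprised 9 genes here, found by symbol among the 49315 genes of the count table: Lgals1, Lgals2, Lgals3, Lgals4, Lgals8, Lgals9 and Lgals12, the binding partner gene Lgals3bp, and the galectin-related gene Lgalsl. All 9 had reads in each of the 12 mice and all 9 passed the filter on low counts. They were measured by RNA sequencing of dorsal root ganglia (DRG), the clusters of sensory neurons and their glia beside the spinal cord, with about 8 ganglia pooled per mouse and 1 library per mouse. The 6 Nf2 mice carried Postn-Cre and floxed Nf2 alleles, and the 6 DKO mice carried Postn-Cre with floxed Nf2 and floxed Fak1 alleles (Fak1 is annotated as Ptk2). Both genotypes were aged 10 months, both carried the Nf2 deletion, and each comprised 3 mice labelled male and 3 labelled female, so that Fak was the gene that differed by design and no mouse with intact Nf2 was among them. The Periostin promoter drives Cre in Schwann cells and their precursors, so the neurons and macrophages of the ganglion were not targeted by design.

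Galectins are small lectins that bind beta-galactosides, the sugar units that Golgi enzymes build onto glycoproteins, and most leave the cell by a route that bypasses the Golgi. Outside the cell they cross-link glycoproteins on immune, glial and endothelial cells, and inside it several of them bind the glycans exposed when an endosome or lysosome breaks. The family is grouped by shape into single-domain members (Lgals1, Lgals2), the chimeric Lgals3, and members with a pair of linked domains (Lgals4, Lgals8, Lgals9, Lgals12). In peripheral nerve, galectin-1 is known as a protein of Schwann cells and sensory neurons that promotes axon regrowth, and galectin-3 as the Mac-2 antigen of macrophages that clear myelin debris.

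Libraries held 21129191 to 41250329 counts, and mitochondrial genes took 1.99% to 5.60% of counts, with the highest share in DKO mouse 887. Mouse 702, an Nf2 mouse labelled male, had 496 CPM of Xist (CPM is the usual per-million scale, the count of a gene divided by the library total) and 0.525 CPM of Ddx3y, which fell within the range of the labelled females (428.5 to 637.1 and 0.149 to 0.852 CPM) and not that of the other 5 labelled males (0.364 to 6.17 and 76.0 to 86.3 CPM). The library therefore went against its sex label, and the main results by labelled sex are also given without it. Ptk2 measured 69.9 ± 3.60 CPM in Nf2 and 64.0 ± 10.4 CPM in DKO mice (SD, n = 6 each), a log2 fold change of -0.15 ± 0.098 (SE, edgeR adjusted p = 0.530). Nf2 itself measured 128.2 ± 12.3 and 118.4 ± 11.2 CPM. Counts over whole genes in mixed tissue do not resolve the deleted exons, so neither value checks the deletion. Markers of sensory neurons (summed level 6681 to 8965 CPM) and Schwann cells (7091 to 10269 CPM) were abundant, as the labelled tissue implies.

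Promoter stretches of 3 members are shown because the results return to these genes: Lgals2 differed most between genotypes, Lgals9 and Lgals3bp are known interferon-responsive members. The RefSeq promoter table used here (GRCm38.p6) matched 7 of the 9 members, and those of Lgals1 and Lgals12 were not analysed here. Each line runs 5′ to 3′ on the gene's own strand and begins 250 bases before the RefSeq start. Bases inside the GENCODE gene were left off, and a motif match is in capitals. Lgals2 is given for chr15:78855530-78855779, Lgals9 for chr11:78984947-78985174 and Lgals3bp for chr11:118402093-118402209, all on the minus strand.
Lgals2: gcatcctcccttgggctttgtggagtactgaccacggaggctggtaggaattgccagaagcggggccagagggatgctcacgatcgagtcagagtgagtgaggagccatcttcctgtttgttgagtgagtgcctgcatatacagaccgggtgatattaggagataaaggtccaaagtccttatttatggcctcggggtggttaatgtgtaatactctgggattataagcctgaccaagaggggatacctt
Lgals9: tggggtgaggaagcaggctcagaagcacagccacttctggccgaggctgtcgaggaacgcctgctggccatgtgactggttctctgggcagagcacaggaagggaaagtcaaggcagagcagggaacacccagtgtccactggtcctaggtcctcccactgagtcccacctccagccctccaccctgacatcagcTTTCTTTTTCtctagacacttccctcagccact
Lgals3bp: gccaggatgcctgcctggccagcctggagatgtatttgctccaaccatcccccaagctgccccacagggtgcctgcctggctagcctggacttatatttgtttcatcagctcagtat
The capitals in Lgals9 mark a match to the interferon-stimulated response element (ISRE, searched on both strands as GAAA, any 2 bases, then GAAA), 55 to 46 bases before the start. This motif occurred in the same window of 2.98% of 32851 mouse promoters. The other letters searched were GAS (TTCNNNGAA, in 7.02% of promoters), PU.1 (GAGGAAGT, 2.44%), AP-1 (TGANTCA, 6.75%), TEAD (GGAATG, 12.6%) and SP1 (GGGCGG, 32.7%). In the whole 250 bases, Lgals2, Lgals4, Lgals8 and Lgals3bp matched none of the 6 motifs, whereas Lgals3 matched SP1 at bases 7 to 2 before the start and Lgalsl matched SP1 at 3 places. The Lgalsl window was also the richest in G and C, at 74.4% with 30 CpG sites, against 50.8% and 6 CpG sites for Lgals2 and a median of 52.4% G and C over all promoters.

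Lgals1 was the most abundant member. Because counts grow with gene length, levels of different genes were compared as counts per kilobase of exon scaled to the same sum in every mouse, as TPM values are. On this scale Lgals1 averaged 606.1 ± 98.5 (SD, n = 12), which was 53.4% of the summed family level. Lgals8, whose protein recognizes broken endosomes, followed at 166.4 ± 15.8, Lgals3 at 130.1 ± 15.3 and Lgals9 at 96.8 ± 6.10. The glycoprotein gene Lgals3bp averaged 58.2 ± 8.53 and Lgalsl, which encodes a relative without the usual sugar binding, 50.2 ± 8.42. Lgals4, known from intestinal epithelium, averaged 13.8 ± 2.91, Lgals2, also known from the gut, 5.62 ± 3.24, and the adipocyte gene Lgals12 0.607 ± 0.181.

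The ranges over the 12 mice did not overlap between Lgals1 and Lgals8, between Lgals9 and Lgals3bp, or between Lgalsl and Lgals4. The other neighbours in this order had overlapping ranges. Lgals8 exceeded Lgals3 in 11 of 12 mice, Lgals3bp exceeded Lgalsl in 8 and Lgals4 exceeded Lgals2 in 10, whereas Lgals3 exceeded Lgals9, and Lgals2 exceeded Lgals12, in all 12. The summed family level was 1141 ± 78.8 in Nf2 and 1114 ± 114 in DKO mice (SD, n = 6 each), and its ranges overlapped (1058 to 1262 against 922.2 to 1246).

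**Figure D1:**
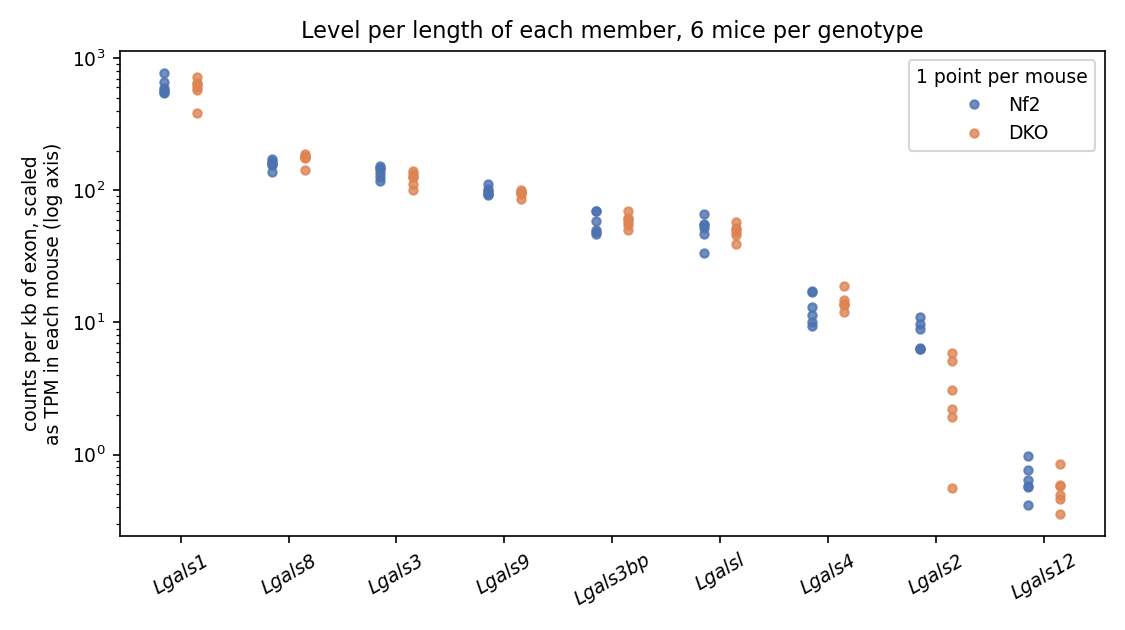
Level of each member in every mouse, as counts per kilobase of exon scaled as TPM, on a log axis, with Nf2 mice in blue and DKO mice in orange. Lgals1 stands above all other members in every mouse, and Lgals2 is the member whose genotypes separate.

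The central comparison, DKO against Nf2, asked which members differed when Fak was deleted in addition to Nf2. None of the 9 members passed an adjusted p of 0.05 in edgeR's quasi-likelihood test over 18295 genes, in which 173 genes passed (0.946%), 104 of them lower in DKO (0.568%). At an unadjusted p under 0.05, 1 of 9 members passed, Lgals2, against 14.8% of all genes. The median log2 fold change was -0.11 over the 9 members and 0.0047 over all genes. Values were negative for 7 of the 9 members, against 48.95% of all genes tested. The intervals of the other 8 members included 0. In bulk tissue, fewer cells of a type and less RNA per cell cannot be told apart.

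**Figure D2:**
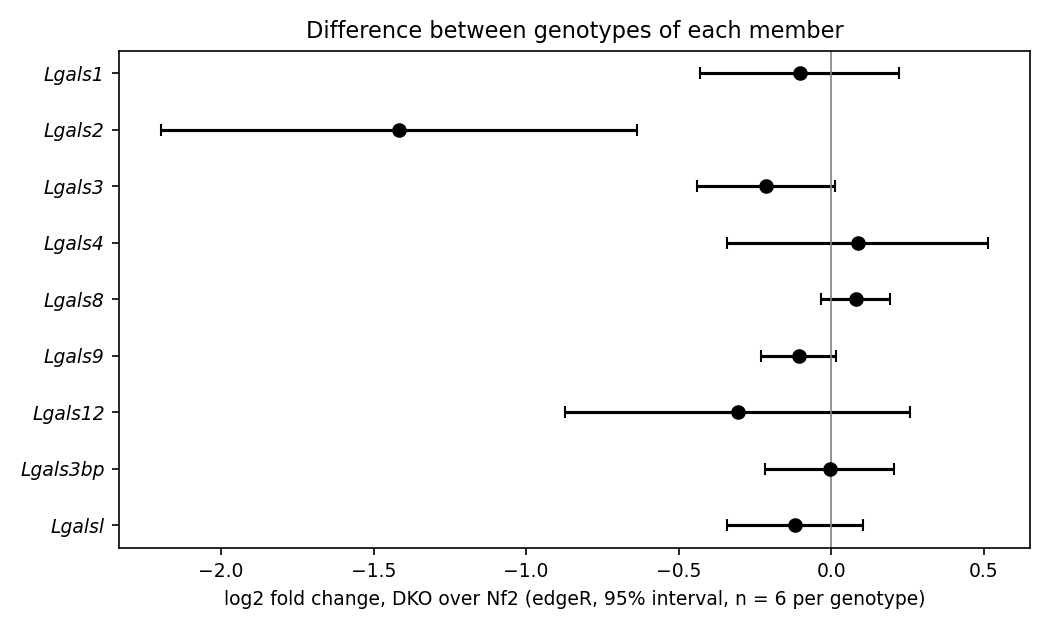
Log2 fold change of each member, DKO over Nf2, with the 95% interval from edgeR (n = 6 mice per genotype). The interval of Lgals2 (-2.20 to -0.64) lies below 0 and those of the other 8 members include 0.

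Lgals2 (ENSMUSG00000043501, chromosome 15, 78850860 to 78855529, minus strand) encodes galectin-2, a single-domain member. Its reads in the Nf2 mice were 26 (mouse 649), 26 (702), 44 (884), 50 (918), 28 (1048) and 38 (1049). In the DKO mice they were 9 (885), 2 (886), 7 (887), 20 (914), 23 (915) and 18 (917). The genotypes did not overlap: the lowest Nf2 mouse had 0.975 CPM and the highest DKO mouse 0.892 CPM. Those mice had 26 reads (702) and 23 reads (915), so the separation rested on a few reads. The order that every DKO mouse lay below every Nf2 mouse held for 1.04% of all genes. Mean levels were 1.29 ± 0.291 CPM in Nf2 and 0.485 ± 0.302 CPM in DKO mice (SD, n = 6 each).

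The log2 fold change of Lgals2 was -1.42 ± 0.36 (SE), which is a fold of 0.374 with a 95% interval of 0.218 to 0.643. It ranked 348th of all genes by p and did not pass (edgeR adjusted p = 0.0857). DESeq2 (adjusted p = 0.00726, among 2.74% of genes called lower) and limma voom with sample weights (adjusted p = 0.0347, among 1.69%) placed it past the threshold at log2 fold changes of -1.43 and -1.48. In 1 set of simulated counts with known changes, 18.4% of the genes DESeq2 called were false, against 3.74% for edgeR and 3.23% for limma voom. The simulated spread was the one edgeR estimated, and only genes above 1 CPM were changed, whereas Lgals2 averaged 0.886 CPM. These rates therefore cannot judge the DESeq2 call of Lgals2. With 1 mouse left out, edgeR gave -1.67 to -1.21 and adjusted p between 0.0593 and 0.172. On the scale the study used, log2(CPM + 4), the difference of means was -0.24. Its two-sided exact permutation p was 0.00216, the smallest that the splits of 6 against 6 mice can give, which 1.95% of genes reached, and at an adjusted p of 0.111 neither Lgals2 nor any other gene passed (0.00%). Because no gene can have a smaller p, a pass over 18295 genes depends on how many genes share it. The adjusted value therefore cannot judge Lgals2 alone. The study singled out Lgals2 from these same libraries, so its difference is not independent evidence.

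Lgals2 was read at a shallow depth of 2 to 50 reads per mouse. Among the 3270 tested genes with a mean of 0.5 to 2 CPM, 16 passed (0.489%) and 29 had a log2 fold change at or below that of Lgals2. The gene overlaps Cdc42ep1 on the opposite strand by 38 of its 592 exon bases, and the strand setting of the count was not given in the sources used here. Cdc42ep1 itself, an effector of Cdc42 signalling, measured 32.9 ± 2.30 CPM in Nf2 and 28.6 ± 3.77 CPM in DKO mice (log2 fold change -0.22, edgeR adjusted p = 0.234).

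By labelled sex, Lgals2 measured 1.38 ± 0.334 CPM in Nf2 females and 0.253 ± 0.145 CPM in DKO females, and 1.20 ± 0.275 CPM in Nf2 males and 0.718 ± 0.210 CPM in DKO males (SD, n = 3 each). The 3 DKO females (0.0852 to 0.342 CPM) lay below the 3 DKO males (0.485 to 0.892 CPM). The fitted log2 fold change was -2.43 in females and -0.80 in males, and neither passed over all genes (edgeR adjusted p = 0.139 and 0.519). Without mouse 702 the 2 remaining Nf2 males averaged 1.31 ± 0.280 CPM (SD) and the value in males was -0.93 (edgeR adjusted p = 0.553), an alternative chosen after seeing the data. The difference between these changes was 1.62 ± 0.59 (SE) on the log2 scale and did not pass (edgeR adjusted p = 0.922). Lgals2 was 1 of the 4.76% of genes with an unadjusted interaction p under 0.05, and 2 genes passed after adjustment (0.0109%), neither of them a galectin. Without mouse 702 the interaction was also positive and did not pass (edgeR adjusted p = 0.772).

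Lgals2 and Lgals1 are neighbours on chromosome 15, about 5.43 and 5.50 Mb from Ptk2, the gene floxed in DKO mice. Among the 33 other tested genes within 0.5 Mb of Lgals2, a window chosen after the values were seen, 28 (84.8%) had a negative log2 fold change, against 48.9% of all genes. Their median was -0.18 on the log2 scale, and 10 (30.3%) had an unadjusted p under 0.05, against 14.8% of all genes. The 1 that passed, against 0.946% of all genes, was Card10, a scaffold of NF-kappaB signalling (log2 fold change -0.39, edgeR adjusted p = 0.0104). Values ran from -1.02 (Baiap2l2, adjusted p = 0.118) to 1.76 (Sstr3, a somatostatin receptor, adjusted p = 0.128). The floxed Fak1 alleles were carried, by label, by all DKO mice and by no Nf2 mouse, so loss of Fak and any sequence inherited beside that allele cannot be told apart.

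**Figure D3:**
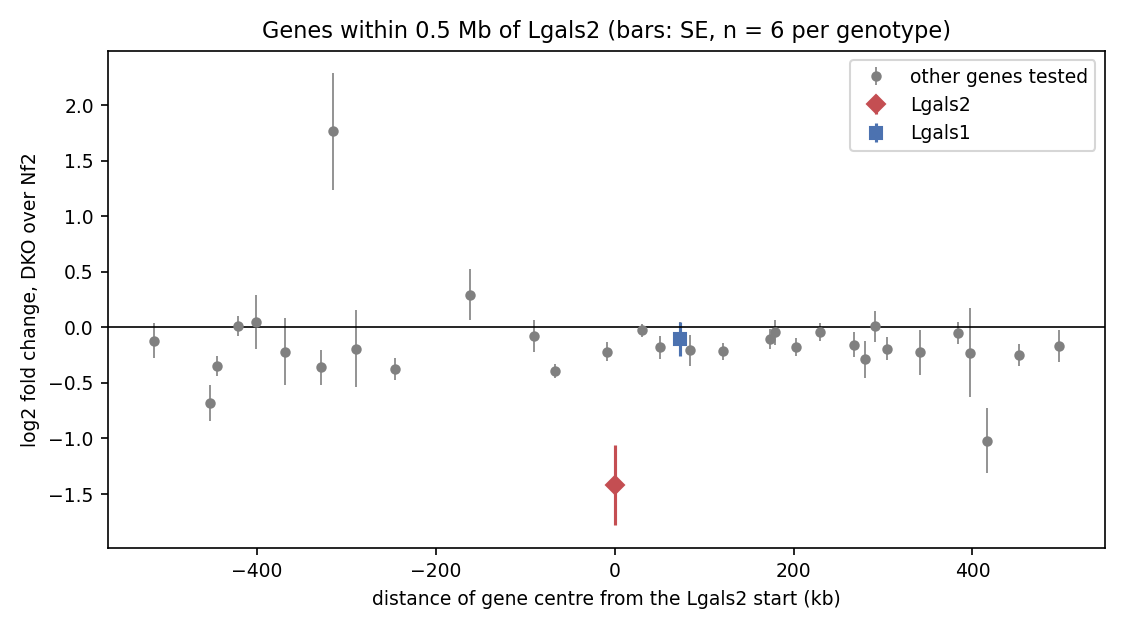
Log2 fold change, DKO over Nf2, of the genes lying within 0.5 Mb of Lgals2, plotted by the distance of the gene's centre from the Lgals2 start in kb, with SE bars (n = 6 mice per genotype). Lgals2 (red) lies at -1.42, below the 33 other genes, and Lgals1 (blue) lies at -0.10.

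Lgals1 (ENSMUSG00000068220, chromosome 15, 78926725 to 78930465, plus strand) encodes galectin-1. Its levels had a minimum, median and maximum of 133.0, 137.4 and 207.1 CPM in Nf2 mice and 89.5, 150.4 and 171.3 CPM in DKO mice. The groups overlapped, with Nf2 mouse 649 highest and DKO mouse 886 lowest of all. Mean levels were 150.8 ± 28.8 and 142.4 ± 28.6 CPM (SD, n = 6 each), and the log2 fold change was -0.10 with a 95% interval of -0.43 to 0.22 (edgeR adjusted p = 0.806). Without mouse 649 the value was 0.016 and without mouse 886 it was 0.0019, so its sign rested on single mice.

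Lgals3 (ENSMUSG00000050335, chromosome 14, 47367751 to 47386160, plus strand) had 56.8, 70.0 and 81.2 CPM as minimum, median and maximum in Nf2 mice and 48.2, 62.8 and 68.1 CPM in DKO mice. All 6 DKO mice lay below the Nf2 mean and 2 of them below every Nf2 mouse. Mean levels were 69.1 ± 9.38 and 60.3 ± 7.64 CPM (SD, n = 6 each). The log2 fold change of -0.21 ± 0.11 (SE, 95% interval -0.44 to 0.012) did not pass (edgeR adjusted p = 0.367).

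Lgals4 (ENSMUSG00000053964, chromosome 7, 28833854 to 28841708, plus strand) measured 8.27 ± 2.63 CPM in Nf2 and 8.87 ± 1.87 CPM in DKO mice (SD, n = 6 each). The log2 fold change was 0.087 with a 95% interval of -0.34 to 0.52 (edgeR adjusted p = 0.882), and without DKO mouse 887, the highest at 12.5 CPM, it was -0.053. Leaving out Nf2 mouse 649 gave 0.22. Some mouse strains carry the near-identical copy Lgals6, which makes the count uncertain. Of the 10 epithelial markers 7 were tested, their summed level was 168.6 to 214.3 CPM in Nf2 and 155.3 to 207.4 CPM in DKO mice, and the basal keratin Krt5 was under 0.1 CPM. The smallest p-values among them belonged to Krt19, a keratin of simple epithelia (log2 fold change 1.32, edgeR adjusted p = 0.189), and Cldn3, a tight junction gene (-0.58, edgeR adjusted p = 0.363).

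Lgals8 (ENSMUSG00000057554, chromosome 13, 12439415 to 12464944, minus strand) had the steadiest level among the Nf2 mice, with a coefficient of variation of 4.41%. The minimum, median and maximum were 149.7, 158.5 and 165.7 CPM in Nf2 and 152.1, 172.5 and 180.0 CPM in DKO mice, with 4 DKO mice above every Nf2 mouse. Mean levels were 157.8 ± 6.96 and 169.0 ± 9.80 CPM (SD, n = 6 each), and the log2 fold change was 0.080 with a 95% interval of -0.032 to 0.19 (edgeR adjusted p = 0.519). The exact permutation p on log2(CPM + 4) was 0.0519. Lgals8 shares 155 of its 3688 exon bases with Heatr1 on the opposite strand, which measured 21.9 and 22.5 CPM.

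Lgals9 (ENSMUSG00000001123, chromosome 11, 78962974 to 78984946, minus strand) encodes galectin-9, a ligand of TIM-3, a receptor found on T cells. Its minimum, median and maximum were 52.0, 56.7 and 61.2 CPM in Nf2 and 51.9, 53.6 and 56.4 CPM in DKO mice. All 6 DKO mice lay below the Nf2 mean, but the ranges overlapped. Mean levels were 56.9 ± 3.50 and 53.5 ± 1.64 CPM (SD, n = 6 each), and the log2 fold change was -0.11 with a 95% interval of -0.23 to 0.015 (edgeR adjusted p = 0.411). The exact permutation p on log2(CPM + 4) was 0.0606.

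Lgals12 (ENSMUSG00000024972, chromosome 19, 7596660 to 7607193, minus strand), whose protein sits on lipid droplets of adipocytes, had 6 to 21 reads per mouse. It measured 0.491 ± 0.136 CPM in Nf2 and 0.406 ± 0.122 CPM in DKO mice (SD, n = 6 each), and a difference was not detectable at this depth (log2 fold change -0.31, 95% interval -0.87 to 0.26, edgeR adjusted p = 0.646). With 1 mouse left out the value ran from -0.45 (without 917) to -0.17 (without 918). The summed level of 10 adipocyte markers was 22.1 to 29.0 CPM in Nf2 and 18.7 to 25.7 CPM in DKO mice, none of the 8 tested passed, and Lep was under 0.1 CPM. On the log2 scale Fabp4, a fatty acid carrier, was at -0.61 in DKO over Nf2 mice (edgeR adjusted p = 0.274) and Cfd, encoding adipsin, -0.29 (edgeR adjusted p = 0.561).

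Lgals3bp (ENSMUSG00000033880, chromosome 11, 118392751 to 118402092, minus strand) encodes a secreted glycoprotein that galectin-3 binds. Mean levels were 43.8 ± 6.28 CPM in Nf2 and 44.3 ± 4.43 CPM in DKO mice (SD, n = 6 each), and the log2 fold change was -0.0055 with a 95% interval of -0.22 to 0.21 (edgeR adjusted p = 0.986). By labelled sex the fitted values were 0.18 in females and -0.19 in males, an interaction of -0.38 ± 0.17 (SE, edgeR adjusted p = 0.922). Without mouse 702 the male value was -0.14 and the interaction -0.33 (edgeR adjusted p = 0.669 and 0.772).

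Lgalsl (ENSMUSG00000042363, chromosome 11, 20823576 to 20831056, minus strand) measured 56.7 ± 9.51 CPM in Nf2 and 52.9 ± 4.81 CPM in DKO mice (SD, n = 6 each). Every DKO mouse lay within the Nf2 range of 41.1 to 70.5 CPM. The log2 fold change was -0.12 with a 95% interval of -0.34 to 0.10 (edgeR adjusted p = 0.654). With 1 mouse left out it ran from -0.19 (without 649) to -0.045 (without 918), and it did not pass in any of these fits (edgeR adjusted p of 0.272 or more).

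**Figure D4:**
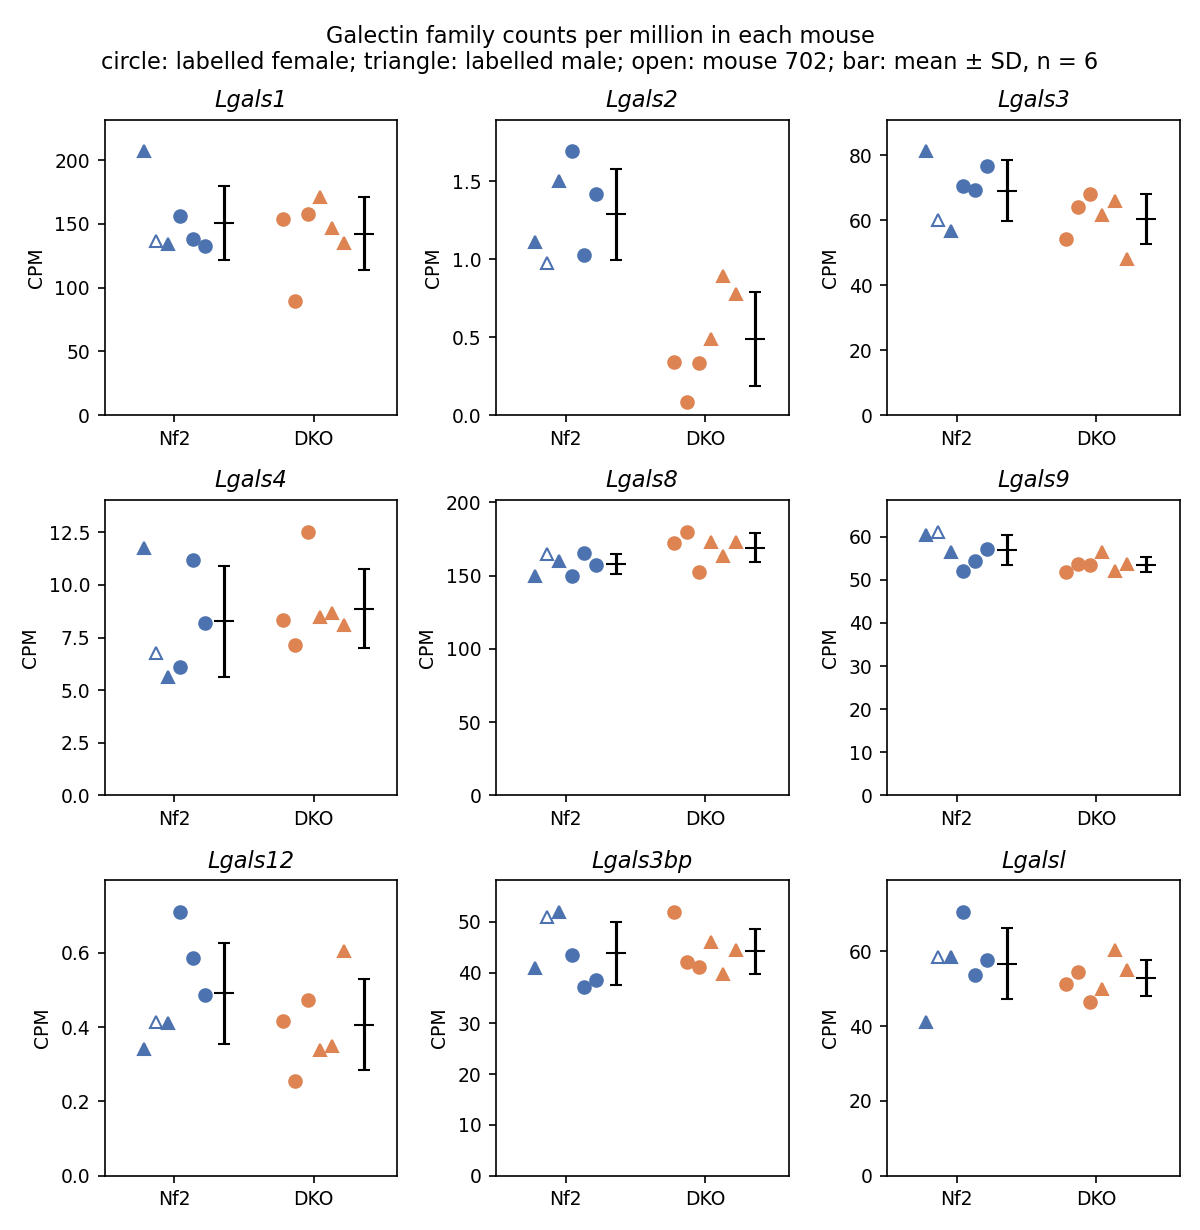
CPM of the 9 members in each mouse, with circles for mice labelled female, triangles for mice labelled male and the open symbol for mouse 702; bars give the mean ± SD of 6 mice. Only in the Lgals2 panel do the genotypes separate, and there the 3 DKO females are the lowest.

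Between labelled males and females, adjusted for genotype, no member passed at an unadjusted p under 0.05, against 2.90% of all genes, and no gene passed after adjustment in edgeR (0.00%; 531 genes at an unadjusted p under 0.05, and 5 genes passed in DESeq2). The member values ran from -0.25 for Lgals12 to 0.48 for Lgals2 (log2, male over female). The labelled males included mouse 702, whose Xist and Ddx3y levels lay in the female range. Even these 2 sex markers did not pass, so the labelled fit cannot settle whether a member differs by sex. With mouse 702 left out 10 genes passed and no member did, and member values ran from -0.22 for Lgals12 to 0.64 for Lgals2.

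Among the enzymes that build or cap the glycans galectins bind, 1 of 13 passed, against 0.946% of all genes. St3gal1, a sialyltransferase that caps core galactose, was higher in DKO mice, at 14.9 ± 1.61 against 11.1 ± 0.987 CPM (SD, n = 6 each, log2 fold change 0.40 ± 0.086 SE, edgeR adjusted p = 0.0443). It ranged from 13.4 to 17.5 CPM in DKO and from 9.94 to 12.7 CPM in Nf2 mice. Gcnt1, which starts the branched core of O-glycans, measured 8.59 ± 1.68 CPM in DKO and 13.1 ± 2.90 CPM in Nf2 mice (-0.63, edgeR adjusted p = 0.0999). The list's median log2 fold change was -0.021 against 0.0047 for all genes.

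Of 16 genes for glycoproteins to which galectins bind, 0 passed in edgeR, against 0.946% of all genes. An unadjusted p under 0.05 was found for 8 of them, against 14.8% of all genes, and their median log2 fold change was -0.067. Lag3, an inhibitory receptor of T cells, measured 1.85 ± 0.529 CPM in DKO and 3.10 ± 0.530 CPM in Nf2 mice (-0.77, edgeR adjusted p = 0.0887). Lamp1, the main lysosomal membrane glycoprotein, measured 407.3 ± 20.1 and 453.0 ± 7.92 CPM (-0.17, edgeR adjusted p = 0.119). Every DKO mouse lay below every Nf2 mouse, which held for 1.04% of all genes, and Lamp1 was named for its small p. Of 10 genes of the response to damaged endosomes, which galectin-3 and galectin-8 trigger, 0 passed in edgeR and 0 had an unadjusted p under 0.05. The smallest p among them belonged to Trim16, a galectin-3 partner (0.15, edgeR adjusted p = 0.448), followed by the autophagy gene Gabarapl2 (-0.061, edgeR adjusted p = 0.674).

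Macrophage markers averaged lower in DKO mice. All 15 had a negative log2 fold change with a median of -0.43, and 10 had an unadjusted p under 0.05, against 14.8% of all genes. The 1 that passed, against 0.946% of all genes, was C1qb, a subunit of complement C1q (-0.71, 22.9 ± 2.86 against 37.0 ± 6.40 CPM in Nf2 mice, n = 6 each, edgeR adjusted p = 0.0127). Csf1r, the receptor on which macrophages depend, had -0.65 (edgeR adjusted p = 0.0576). The summed macrophage level was 308.8 to 477.8 CPM in Nf2 and 264.6 to 357.4 CPM in DKO mice, and no marker was at 0 in every mouse. Lgals2 and Lgals3 had negative values in the same direction. With genotype means removed, the level of the macrophage list was related to Lgals2 with r = 0.24 and rho = 0.19 (permutation p = 0.470 and 0.570, n = 12) and to Lgals3 with r = -0.21 and rho = -0.12 (permutation p = 0.538 and 0.728), and neither passed over the 5 relations tested (adjusted permutation p = 0.538 for both r). Without the 2 mice farthest from the median of the list, 702 and 886, r was 0.25 for Lgals2 and -0.040 for Lgals3. With 1 mouse left out, r ran from 0.051 (without 1048) to 0.40 (without 702) for Lgals2, with 0.065 without 886, and from -0.35 (without 917) to -0.10 (without 885) for Lgals3. Whether the macrophage level took part in the Lgals2 value beyond this was not tested.

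Interferon-induced genes ranged widely between mice of both genotypes, with a summed level of 301.1 to 857.2 CPM in Nf2 and 269.2 to 704.5 CPM in DKO mice. In edgeR 0 of 14 passed (0.946% of all genes did), and 1 had an unadjusted p under 0.05 (14.8% of all genes did). That gene was Rsad2, an antiviral enzyme (log2 fold change 0.79, edgeR adjusted p = 0.227), and Zbp1, a nucleic acid sensor, had -0.61 (edgeR adjusted p = 0.430). Over all 12 mice, with genotype means removed, Lgals9 had r = 0.43 and rho = 0.44 with this list (permutation p = 0.190 and 0.188, adjusted 0.475 and 0.471). Its r was 0.32 without mice 702 and 887 and ran from 0.20 (without 702) to 0.57 (without 887) with 1 mouse left out. Lgals3bp had r = 0.49 and rho = 0.56 (permutation p = 0.124 and 0.0825, adjusted 0.475 and 0.412). Within the 6 Nf2 mice r was 0.92 for Lgals3bp (exact permutation p = 0.0111) and within the 6 DKO mice it was -0.13 (exact permutation p = 0.792). These p-values within a genotype were not adjusted over the relations examined. Among the other relations the smallest exact permutation p within a genotype was 0.221, for Lgals9 in Nf2 mice. Without the 2 mice farthest from the median, 702 and 887, the pooled r was 0.80, without mouse 887 alone it was 0.82 (adjusted permutation p = 0.0326), and without mouse 702 alone it was 0.33 (adjusted permutation p = 0.697). The pooled value therefore depended on both mice, of which 887 also had the highest mitochondrial share. Lgals12 had r = -0.21 and rho = -0.22 with adipocyte markers (permutation p = 0.524 and 0.515, adjusted 0.538 and 0.712), with r = -0.15 without mice 887 and 1049 and between -0.43 (without 917) and -0.095 (without 1048) with 1 mouse left out.

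**Figure D5:**
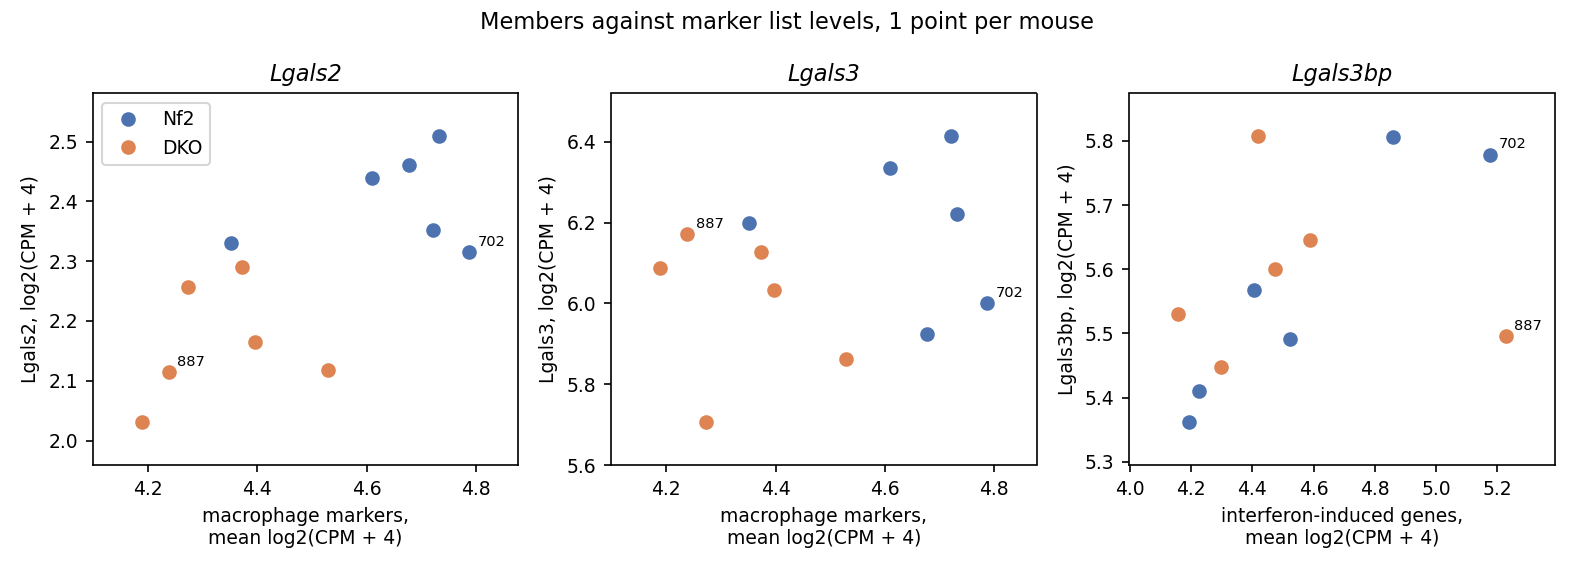
Lgals2 and Lgals3 against the mean level of macrophage markers, and Lgals3bp against that of interferon-induced genes, all as log2(CPM + 4), with 1 point per mouse (Nf2 blue, DKO orange) and mice 702 and 887 labelled. Lgals3bp climbs with the list among the Nf2 mice (r = 0.92, exact permutation p = 0.0111, not adjusted), while DKO mouse 887 combines a high list level with a low Lgals3bp level.

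Other tissues in the dissection also varied. Skeletal muscle markers had a summed level of 51.7 to 967.9 CPM in Nf2 and 61.2 to 339.0 CPM in DKO mice. The median of this level was 641.9 CPM in Nf2 and 126.5 CPM in DKO mice. All 10 markers had a negative log2 fold change, with a median of -2.16. Of these, 8 had an unadjusted p under 0.05, against 14.8% of all genes, and 0 were past the threshold in edgeR, against 0.946%. T and NK cell markers were scarce, at 4.40 to 8.82 CPM in Nf2 and 4.13 to 6.78 CPM in DKO mice. None of the sensory neuron, Schwann cell, satellite glia, fibroblast or T and NK cell markers passed. The part of muscle and of these other tissues in the galectin values, that of Lgals2 included, was not tested.

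Across mice, the members did not move as a single group. With genotype means removed, the highest correlation among the 7 members with a mean of at least 1 CPM was r = 0.60 between Lgals3 and Lgals4, and the lowest was r = -0.77 between Lgals4 and Lgalsl. These values describe 12 libraries that share depth and tissue composition. Mice 887, 649 and 1048 had the highest mitochondrial shares (5.60%, 4.45% and 3.15%) and the highest Lgals4 levels (12.54, 11.75 and 11.18 CPM). Lgalsl was lowest in mice 649 and 887 (41.1 and 46.5 CPM). The part of library quality in these correlations was not tested. The genes of at least 5 CPM most like each member were Faap100, Gm42840 and Ddah2 for Lgals1 (r = 0.96, 0.95 and 0.95), D730003I15Rik, Srsf4 and Csad for Lgals3 (0.96, 0.95 and 0.91), and Pip5kl1, Coprs and Ring1 for Lgals4 (0.98, 0.97 and 0.97). For Lgals8 they were Pfkp, Got1 and Sytl2 (0.95, 0.93 and 0.93), for Lgals9 Psmd1, St6gal2 and Slc7a8 (0.87, 0.85 and 0.84), for Lgals3bp Tyro3, Ncoa6 and A3galt2 (0.93, 0.91 and 0.89), and for Lgalsl Zfp148, Ppp1cb and Mpp5 (0.98, 0.97 and 0.96). Each of these genes was picked as highest among 12464 compared over 12 mice, so a high r follows partly from the search. Without the 2 mice farthest from the other gene's median, r ran from 0.635 (Slc7a8 with Lgals9) to 0.963 (Coprs with Lgals4). Lgals2 and Lgals12 lay under 1 CPM and were given no such genes.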

How the data were processed

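RNA was sequenced by a commercial provider from DRG of 12 mice after poly(A) selection. Per the labels' processing notes the reads were handled with Trimmomatic 0.36, STAR 2.5.2b and featureCounts (Subread 1.5.2) on GRCm38. Strand and multi-mapping settings were not given in the sources used here. The authors deposited raw counts, 1 whole number per gene and mouse, without normalization. Of the 49315 genes, 49056 (99.5%) were found in GENCODE M21, which gave positions and exon lengths.

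Genes were kept by filterByExpr (18295 left) and scaled by the trimmed mean of M values, and genotypes were compared by edgeR 4.0.16 (quasi-likelihood F test, R 4.3.3) in all 12 mice, with Benjamini-Hochberg adjustment over all genes and a threshold of 0.05. SE and 95% intervals were derived from the fold change and its F statistic. Labelled sex entered a further model beside genotype, and then their interaction. The exact permutation test ran over all splits of the mice into 6 and 6, on log2(CPM + 4) for every gene. Relations used 100000 permutations, exact within a genotype. DESeq2 1.42.0, limma 3.58.1, other scalings, filters, pseudocounts, subsets of mice and each mouse left out were alternatives. Outlying mice were looked for with Dixon's ratio. Scripts were tested on simulated data. Libraries differed beyond sampling noise in all 66 pairs (chi-square per degree of freedom 9.48 to 78.1). The p-values weigh a difference or a correlation against the variation between mice.

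The 9 members, the gene lists and the tests were chosen with earlier results of these data known. Named genes were the members, Ptk2, Nf2, Xist and Ddx3y, the 3 genes most correlated with each member of at least 1 CPM, and of each list those past the threshold or the 2 with the smallest p. Genes overlapping or neighbouring Lgals2 and Lgals8 were named after their values were seen. Of the list genes this rule names, those of the muscle, neuron, Schwann cell, satellite glia, fibroblast and T and NK cell lists are given only as counts. Krt5 and Lep lay outside the rule and are named as markers under 0.1 CPM.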

Additional observations from a re-analysis of the deposited data

Results flagged for a closer look

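Of 24 groups of 6 mice examined, 4 held a mouse far from the others by Dixon's ratio, where chance gives about 1 in 20 groups, or 1.2 here. For Lgals1, Nf2 mouse 649 had 207.1 CPM against 155.9 CPM in the nearest Nf2 mouse. For Lgals4, DKO mouse 887 had 12.5 CPM against 8.65 CPM in the nearest DKO mouse. For the summed level of interferon-induced genes, Nf2 mouse 702 had 857.2 CPM against 498.2 CPM, and DKO mouse 887 had 704.5 CPM against 399.4 CPM. Mitochondrial genes took the highest shares of counts in mice 887 (5.60%) and 649 (4.45%) and the lowest in mouse 702 (1.99%). The part of library quality in these values was not tested.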

How the results depend on the processing

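The count of genes that passed between genotypes, 173 in edgeR, was 845 in DESeq2 (344 higher and 501 lower in DKO), 521 in limma voom (211 and 310), 54 in labelled females only, 3 in labelled males only and 8 in labelled males without mouse 702, an alternative chosen after seeing the data. With 1 mouse left out it ranged from 82 to 210, and it moved by over 1.5 times without mouse 884 (109), 885 (97), 914 (115), 917 (85), 918 (82) or 1049 (96). Genes passing by sex, 0 in edgeR, were 5 in DESeq2 and 10 without mouse 702, and interaction genes, 2 in edgeR, were 4 with no filter and 20 in DESeq2. No member passed in any of these sex or interaction fits. Of the genes DESeq2 called between genotypes in simulated counts, 18.4% were false, against 3.74% in edgeR, whose own estimate of spread the simulation used. Lgals2 kept its direction under every alternative that tested it. The stricter filter left out Lgals2 and Lgals12.

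Member values that changed sign did not pass in any setting, and the cause was not tested. In the genotype comparison Lgals1 was 0.0095 in limma voom and ran from -0.16 to 0.016 with 1 mouse left out. Lgals3bp was 0.015 with library totals, 0.0011 with sex as a covariate, 0.18 in females and -0.058 to 0.047 with 1 mouse left out. In males, and in males without mouse 702, Lgals12 was 0.075 and 0.12 and Lgalsl was 0.019 and 0.099, and without mouse 702 Lgals4 was -0.099. Lgals4 ran from -0.053 to 0.22 with 1 mouse left out. The sex value of Lgals8 was -0.0047 without mouse 702, and the interaction of Lgals3 was 0.020 with no filter. Differences of log2(CPM + 4) with 1 mouse left out ran from -0.15 to 0.034 for Lgals1 and from -0.025 to 0.066 for Lgals3bp. The r of Lgals3bp with interferon-induced genes ran from 0.33 to 0.82, and the Lgals4 level per length was 17.9 by the longest transcript. No paired analysis was possible because the genotypes share no mouse numbers. Depth limits Lgals2 and Lgals12 most, with 2 to 50 and 6 to 21 reads per mouse.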

Other observations

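The genes looked up outside the 9 members, Lgals7 and the pseudogenes Lgals1-ps1 and Lgals1-ps2, were near the limit of the count. Lgals7, a galectin of stratified epithelium, had 0 to 9 reads per mouse, at 0.200 ± 0.125 CPM in Nf2 and 0.0888 ± 0.0959 CPM in DKO mice (SD, n = 6 each). The pseudogene Lgals1-ps1 had 1 read in 1 mouse and Lgals1-ps2 had 0 reads.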
